A study of Homo sapiens with 46 samples.

Results

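The 7 genes described here were HMGCS1, IDI1, FDFT1, SQLE, SC5D, DHCR7 and INSIG1, a fixed set of cholesterol synthesis enzymes together with a membrane regulator of the pathway. They were found by gene name, and all 7 were present among the 10701 Ensembl genes that appear in the count tables of all 4 cell types. The set was named for synthesis and uptake, but none of the 7 is an uptake receptor; uptake genes were therefore read from a separate list. RNA came from 4 subcellular fractions, cytoplasm, nucleus, nucleoplasm and chromatin, of 4 cell types. The cell types were H1 human pluripotent stem cells (hPSC), an established line grown in mTeSR1, and ectoderm, endoderm and mesoderm made from the same line in culture. Ectoderm was made with knockout serum replacement and the inhibitors A83-01, PNU-74654 and Dorsomorphin, endoderm in RPMI with WNT3A and Activin A, and mesoderm with VEGF, BMP4 and bFGF, with Activin A at first. Collection after 5 days is stated at the end of the ectoderm recipe and may not hold for the others. The series' design text speaks of actinomycin D and transcript half-lives, but no sample label names that drug; whether any library had it was not tested, and all were read here as untreated with it. In all groups cytoplasm was the supernatant of a mild NP-40 lysis that contained α-amanitin, an inhibitor of RNA polymerase II, and nuclear RNA came from a portion of the pellet. The 46 libraries form 16 groups, 15 with 3 libraries and mesoderm nucleoplasm with 1, and all derive from 1 cell line. Library totals ran from 4990408 to 21298678 counts, and the lowest count of any of the 7 genes in any library was 56, for IDI1.

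Cells make cholesterol from acetyl-CoA through mevalonate, isoprenoid units, squalene and a series of sterols. The early steps around HMG-CoA synthase and the isoprenoid kinases run on soluble enzymes, while nearly all steps from squalene onward are carried out by enzymes anchored in the endoplasmic reticulum (ER), whose mRNAs are usually translated on the ER surface. When ER sterol is low, SCAP escorts the SREBP factors to the Golgi, where proteases release their active part, and the genes of synthesis and uptake are switched on. INSIG proteins hold SCAP in the ER when sterol is plentiful. INSIG1 is itself an SREBP target, so that its mRNA is often read together with those of the enzymes.

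RefSeq promoter entries (GRCh38.p14) were found for 5 of the 7 genes. Some genes have several entries with different starts. The entries are shown because all 7 genes were higher in the cytoplasm of each lineage than in that of hPSC. On chromatin not all of them were. NF-Y, which binds the CCAAT box, is a known partner of SREBP at sterol-regulated promoters. Whether it has a part in the levels described here was not tested. Each line gives, from an entry that holds one, the box nearest to the start with its flanks, 29 bases 5′ to 3′ on the gene's strand; capitals mark the box, which in all 5 reads ATTGG, that is CCAAT on the opposite strand.
HMGCS1, chr5:43313496-43313524 (minus), 100 bases before the start: ctaccggccgcgATTGGctgtgggagcca
IDI1, chr10:1048957-1048985 (minus), 87 bases before the start: ctggcgcgagcgATTGGctgcgcggcccg
SC5D, chr11:121292703-121292731 (plus), 56 bases before the start: cgccggtcgctgATTGGctggccgctcca
DHCR7, chr11:71448425-71448453 (minus), 48 bases before the start: ggtccgcctccgATTGGcaggcaatcgct
INSIG1, chr7:155297696-155297724 (plus), 170 bases before the start: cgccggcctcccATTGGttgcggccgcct
The search for CCAAT covered 250 bases before the start on both strands. It found the box in at least 1 entry of 5 of 5 genes, beside 37.0% of 27305 genes. Of their 10 entries 7 held it, beside 32.0% of 35116 promoters of the same length. Entries of the same gene can overlap: the box printed for SC5D lies in both of its entries, so these are not 7 separate boxes. The stricter sterol element TCACNCCAC, searched in the same way, was found for 0 of 5 genes and for 1.09% of all genes. A match is only a run of letters in this window, and a missing match says nothing of SREBP.

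The soluble genes were HMGCS1, which makes HMG-CoA (ENSG00000112972, GRCh38, chromosome 5, 43289395 to 43313512, minus strand), and IDI1, the isomerase that interconverts the isoprenoid building blocks (ENSG00000067064, chromosome 10, 1039152 to 1049170, minus strand). Of the membrane-anchored genes, FDFT1 encodes squalene synthase (ENSG00000079459, chromosome 8, 11795573 to 11839309, plus strand). SQLE encodes squalene epoxidase, which adds oxygen to squalene (ENSG00000104549, chromosome 8, 124998497 to 125022283, plus strand). SC5D, the sterol C5 desaturase, lies on chromosome 11 (ENSG00000109929, 121292453 to 121308694, plus strand). DHCR7, which reduces 7-dehydrocholesterol to cholesterol, also lies on chromosome 11 (ENSG00000172893, 71428193 to 71452868, minus strand). INSIG1 lies on chromosome 7 (ENSG00000186480, 155297776 to 155310235, plus strand). All are protein coding genes in GENCODE 29, and the counts were summed over all transcripts of each gene.

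Lineage markers followed the labels in part. All 8 endoderm markers were in the endoderm table and none in those of hPSC and ectoderm. Of the ectoderm markers 6 of 8 were in the ectoderm table, against 2 of 8 in hPSC and 3 of 8 in mesoderm. Yet their sum in mesoderm nucleus, 1261 to 1586 CPM, was as high as in ectoderm nucleus (1268 to 1478 CPM). In mesoderm cytoplasm it was 235 to 256 CPM, beside 1144 to 1369 CPM in ectoderm cytoplasm. Of the mesoderm markers 5 of 8 were in the mesoderm table, MIXL1, MESP1 and KDR were not, and TBXT was at 0.1 CPM (counts per 1e6 counts of the library). Their sum went against the label: it was 139 to 146 CPM in mesoderm cytoplasm and 179 to 245 CPM in that of endoderm, whose table held 7 of 8, and it was 43.8 to 51.6 CPM in mesoderm nucleus beside 396 to 469 CPM in hPSC nucleus. GATA6 is on both the endoderm and the mesoderm list, so in endoderm it counts toward both sums. The summed pluripotency markers were at 7978 to 9002 CPM in hPSC cytoplasm. In lineage cytoplasm they remained at 2184 to 2714 CPM in ectoderm, 2768 to 2915 CPM in mesoderm and 5037 to 6053 CPM in endoderm. Endoderm nucleus, nucleoplasm and chromatin were lower than endoderm cytoplasm, at 1710 to 2098, 1507 to 1558 and 1398 to 1459 CPM. The fraction labels were less clear. MALAT1, an RNA retained in nuclei, was at 74.1 to 95.7 CPM in the hPSC libraries labelled nucleus and at 208 to 252 CPM in cytoplasm, a log2 difference of 1.44 (SE 0.24, edgeR quasi-likelihood test, adjusted p = 0.000128). In ectoderm the same order held, with 34.2 to 304 CPM in nucleus, 1112 to 2179 CPM in cytoplasm and a log2 difference of 3.04 (SE 0.50, adjusted p = 0.000246). In endoderm (log2 change -0.63, adjusted p = 0.236) and mesoderm (-0.76, adjusted p = 0.0534) MALAT1 did not pass. MALAT1 is 1 of 6 nuclear RNA controls, which went both ways. Of those tested, 2 were higher and 2 lower in cytoplasm in hPSC, 4 and 0 in ectoderm, 1 and 2 in endoderm, and 0 and 4 in mesoderm. Their summed level was higher in nucleus in hPSC (1076 to 1340 beside 996 to 1010 CPM) and mesoderm (1556 to 2132 beside 794 to 969 CPM), and higher in cytoplasm in ectoderm (1540 to 2653 beside 170.1 to 594 CPM) and endoderm (596 to 829 beside 173 to 580 CPM). Mitochondrial transcripts took 8.1% to 16.1% of counts in the libraries labelled nucleus and 0.4% to 1.6% in cytoplasm of hPSC, ectoderm and endoderm; in mesoderm the order was the opposite, 1.1% to 1.4% in nucleus and 5.8% to 7.5% in cytoplasm. MALAT1 was lower on chromatin than in nucleoplasm in hPSC, ectoderm and endoderm (log2 change -2.82, -1.73 and -1.55, edgeR, adjusted p = 6.12e-05, 0.00951 and 0.0113). Of the controls tested, 0 passed as higher and 2 as lower on chromatin in hPSC, 2 and 1 in ectoderm, and 1 and 1 in endoderm. Mitochondrial transcripts took 7.9% to 11.9% of counts in nucleoplasm of these cell types and 1.3% to 5.8% on chromatin. The part of these differences in the results below was not tested, and "nucleus" below means the libraries with that label.

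Levels of single genes are set side by side on the deposited TPM values, which are scaled by transcript length. FDFT1 led in the cytoplasm of every cell type, with 109 to 151 TPM in hPSC and 218 to 278 TPM over the lineage libraries. By their medians HMGCS1 came next in the lineages, at 69.5 to 124 TPM, and then IDI1, at 41.7 to 73.5 TPM. The IDI1 range overlapped those of HMGCS1 and INSIG1 in ectoderm (43.8 to 73.5 TPM beside 69.5 to 109 and 35.9 to 55.6 TPM) and that of DHCR7 in endoderm (41.7 to 58.5 TPM beside 42.1 to 54.5 TPM). In hPSC cytoplasm HMGCS1 (18.3 to 30.8 TPM) and IDI1 (21.1 to 21.9 TPM) did not differ beyond their spread, nor did SQLE (10.7 to 14.3 TPM) and DHCR7 (11.2 to 15.0 TPM). SC5D (7.59 to 9.83 TPM) and INSIG1 (6.43 to 7.11 TPM) were the lowest there. In the nucleus the order was another one: DHCR7, near the lower end in hPSC cytoplasm, was level with FDFT1 in hPSC (103 to 120 TPM beside 109 to 115 TPM). IDI1 was the lowest of the 7 in the hPSC and endoderm nucleus (7.91 to 9.18 and 2.83 to 14.3 TPM), although the endoderm range overlapped those of SC5D and HMGCS1.

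**Figure D1:**
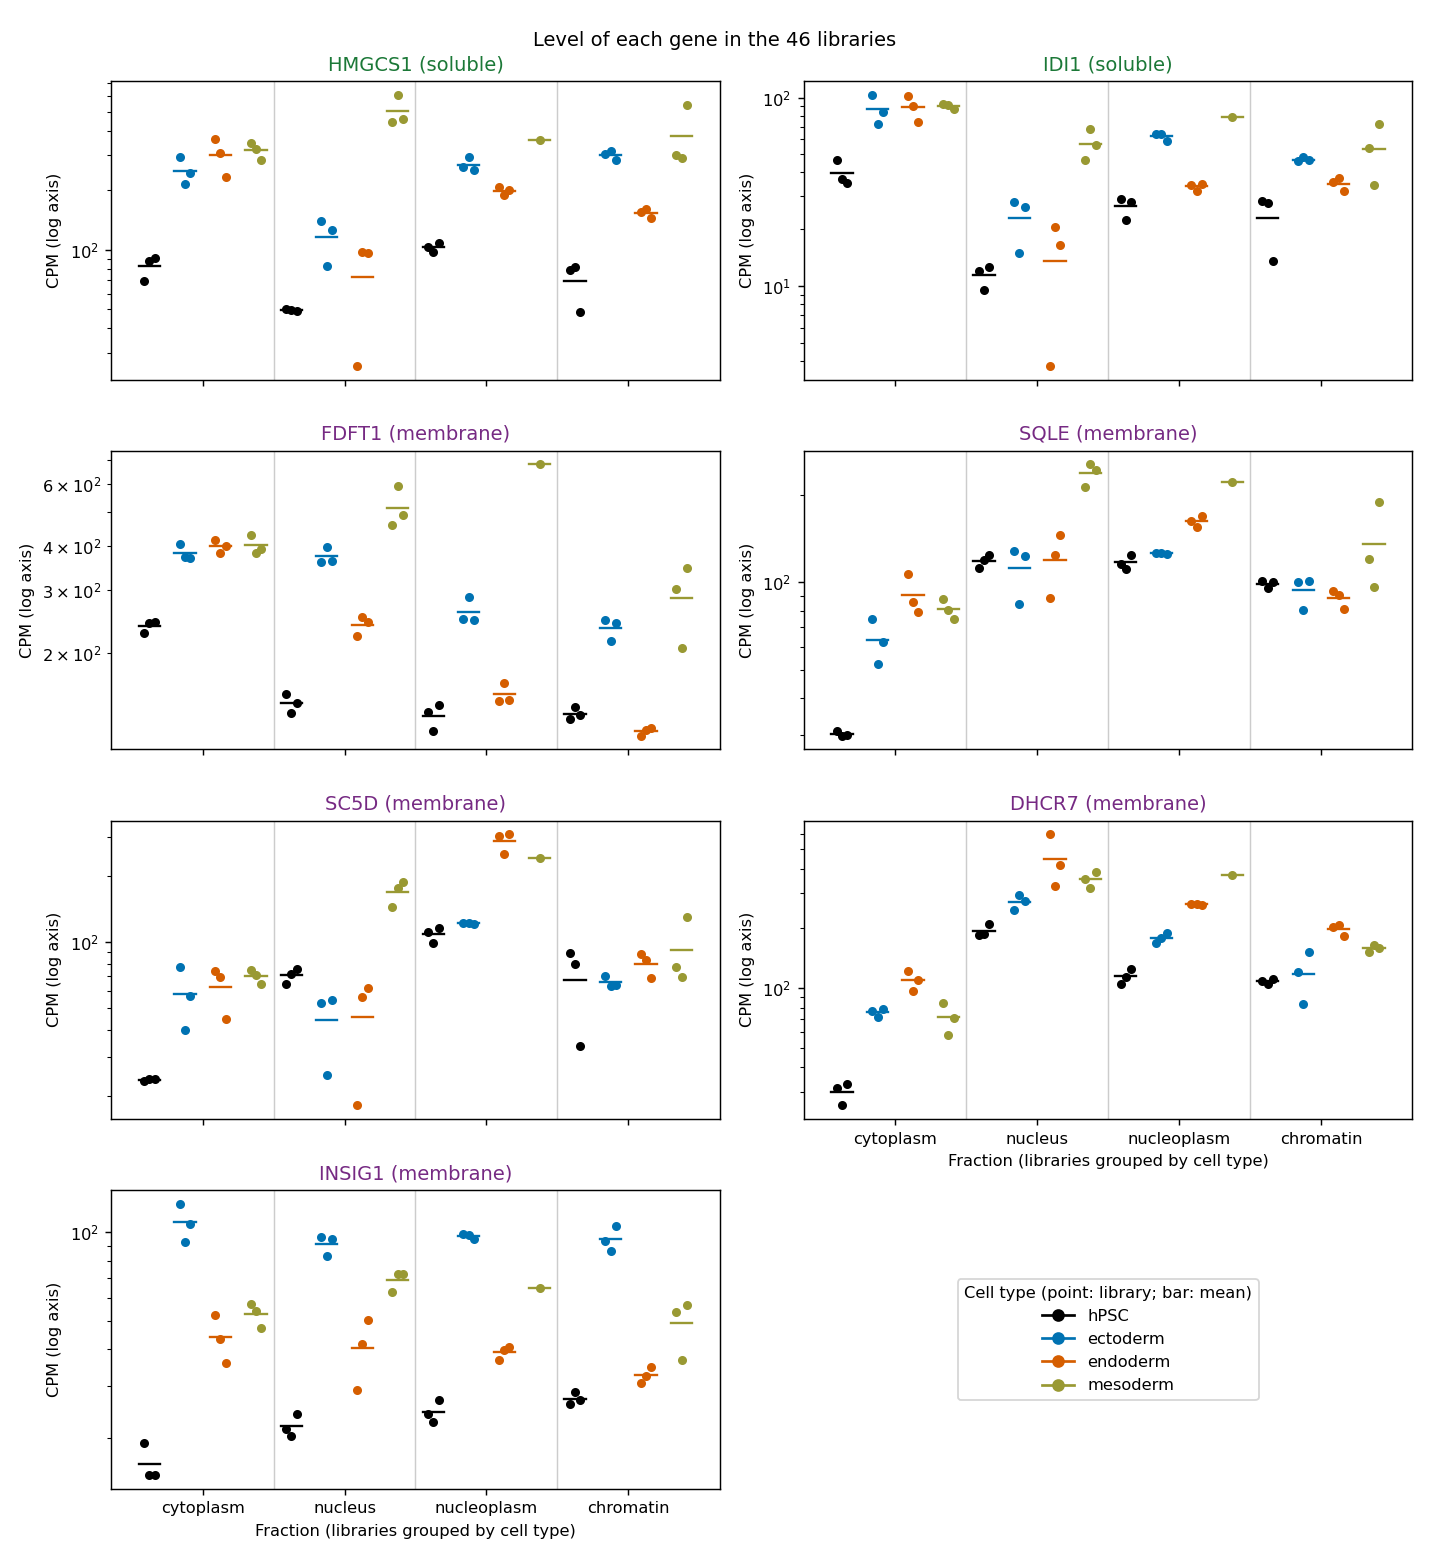
CPM for the 7 genes, one panel a gene, with one point a library and a bar for the mean, by fraction along the x axis and coloured by cell type, on a log y axis. DHCR7 is lowest in cytoplasm in every cell type, whereas IDI1 is highest in cytoplasm in every cell type.

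Cytoplasm and nucleus were compared within each cell type to see where the mRNAs of soluble and of membrane-anchored enzymes were found. Among the soluble genes, IDI1 was higher in cytoplasm in all 4 cell types and HMGCS1 in 3. Of the membrane genes, DHCR7 and SQLE were lower in cytoplasm in all 4, SC5D in 2 and INSIG1 in 2, while FDFT1 behaved apart from them. Calls were made at an adjusted p under 0.05, over all genes tested. In hPSC 7 of 7 genes were called (65.4% of all genes), in ectoderm 5 of 7 (53.7% of all genes), in endoderm 5 of 7 (69.8%) and in mesoderm 4 of 7 (63.3%), so that most genes differed between these fractions and the direction of each gene is what is described. All 7 genes passed the filter on low counts in every comparison. Nothing in the labels says that replicates came from separate cultures, and p-values measure only the spread between these libraries. Fitted changes use TMM factors, which set the bulk of genes near no change, and they can depart from ratios of CPM. In endoderm the median gene lay at 0.01 with TMM and at 0.71 on total counts, and the called genes that were higher in cytoplasm went from 4397 of 8939 to 6831 of 9567. In ectoderm the median moved from 0.01 to 0.35 and the higher share from 4350 of 8586 to 6081 of 7960.

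IDI1 stood at 46.7, 36.9 and 35.3 CPM in hPSC cytoplasm and at 11.97, 9.54 and 12.6 CPM in nucleus. No library overlapped, and the log2 change was 1.73 (SE 0.25, adjusted p = 4.3e-05). Ectoderm cytoplasm held 104, 72.1 and 83.7 CPM of IDI1 beside 27.9, 15.0 and 26.2 CPM in nucleus, a change of 1.59 (SE 0.15, adjusted p = 1.74e-06). In endoderm the cytoplasm values of 102, 90.4 and 74.3 CPM all exceeded 3.76, 20.5 and 16.5 CPM in nucleus. The change was 2.10 (SE 0.31, adjusted p = 2.85e-05), and 1.73 without the first nucleus library, whose IDI1 was far below the other two. In mesoderm the difference was smaller but the groups were still separate, with 92.3, 91.3 and 87.1 CPM in cytoplasm, 46.6, 68.3 and 55.7 CPM in nucleus and a change of 0.78 (SE 0.22, adjusted p = 0.00955). On the deposited TPM values this mesoderm change was -0.36 and did not pass (limma, adjusted p = 0.223).

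HMGCS1 rose toward the cytoplasm in hPSC, from 50.2, 49.8 and 48.8 CPM in nucleus to 69.3, 87.3 and 90.8 CPM, a log2 change of 0.66 (SE 0.17, adjusted p = 0.00331); on the TPM values it was 0.24 (limma, adjusted p = 0.342). In ectoderm it went from 139.6, 82.7 and 125 CPM to 294, 215 and 246 CPM (0.79, SE 0.12, adjusted p = 0.000159). In endoderm 25.9, 97.1 and 96.8 CPM in nucleus stood beside 362, 309 and 234 CPM in cytoplasm. The first nucleus library was again low, and the change of 1.43 (SE 0.28, adjusted p = 0.000304) became 1.10 without it. Mesoderm was the exception for this gene: its nucleus held 443, 609 and 459.6 CPM, above the cytoplasm values of 347, 322 and 284 CPM. That change of -0.56 (SE 0.24, adjusted p = 0.057) did not pass with edgeR, and passed with DESeq2 (-0.59, adjusted p = 0.0182) and on total counts (-0.67, adjusted p = 0.0344).

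DHCR7 had the largest cytoplasm deficit of the 7 genes in every cell type. In hPSC it was at 31.5, 25.7 and 32.9 CPM in cytoplasm and at 186, 187 and 209.9 CPM in nucleus (log2 change -2.77, SE 0.13, adjusted p = 5.12e-10). Ectoderm had 76.5, 71.7 and 78.6 CPM against 246, 294 and 274 CPM (-2.20, SE 0.18, adjusted p = 6.32e-07). Mesoderm had 84.3, 58.4 and 71.1 CPM against 356, 321 and 383 CPM (-2.21, SE 0.16, adjusted p = 1.57e-06). In all 3 the fractions were far apart. In endoderm, 122, 97.1 and 110.4 CPM in cytoplasm faced 597, 327 and 416 CPM in nucleus. The endoderm change was -2.82 (SE 0.28, adjusted p = 3.89e-07); without the first nucleus library, the one with the highest DHCR7, it was -2.30.

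SQLE, a known control point of the sterol branch, was at 31.0, 29.7 and 29.9 CPM in hPSC cytoplasm and 112, 119 and 124 CPM in nucleus (log2 change -2.04, SE 0.11, adjusted p = 1.86e-09). In ectoderm cytoplasm it was at 74.8, 52.3 and 62.3 CPM, below the nucleus values of 128, 84.1 and 123 CPM (-1.15, SE 0.11, adjusted p = 3.08e-06). Mesoderm showed 87.8, 80.3 and 74.6 CPM against 212, 254 and 243 CPM (-1.44, SE 0.21, adjusted p = 0.000125). The endoderm libraries overlapped in CPM, with 107, 85.4 and 79.2 CPM in cytoplasm and 88.5, 124 and 146 CPM in nucleus. Its fitted change there of -1.09 (SE 0.14, adjusted p = 7.64e-06) was -0.40 on total counts (adjusted p = 0.0504).

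SC5D was separate between fractions in hPSC, with 23.5, 23.9 and 23.9 CPM in cytoplasm and 64.6, 71.5 and 75.8 CPM in nucleus (log2 change -1.64, SE 0.26, adjusted p = 0.000105). In mesoderm it was at 74.5, 71.1 and 64.7 CPM in cytoplasm and 145, 176 and 187 CPM in nucleus (-1.16, SE 0.21, adjusted p = 0.000531). In the other lineages the fractions overlapped. Ectoderm had 77.3, 39.8 and 56.7 CPM in cytoplasm and 53.0, 24.8 and 54.5 CPM in nucleus (0.07, adjusted p = 0.779). Endoderm had 73.7, 69.3 and 44.8 CPM in cytoplasm and 18.1, 56.6 and 61.9 CPM in nucleus (-0.17, adjusted p = 0.59); without the first nucleus library the change was -0.46 and passed (adjusted p = 0.0229).

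FDFT1, whose protein is held in the ER membrane by its C-terminal end, did not move with DHCR7 and SQLE. In hPSC it was higher in cytoplasm, at 227, 242 and 244 CPM against 153, 135 and 144 CPM (log2 change 0.66, SE 0.10, adjusted p = 5.08e-05), although 0.25 on TPM values (limma, adjusted p = 0.118). Ectoderm libraries overlapped, with 405, 373 and 371 CPM in cytoplasm and 361, 397 and 363 CPM in nucleus. The small change of -0.32 (SE 0.12, adjusted p = 0.0428) was lost without the second nucleus library or without any 1 cytoplasm library (-0.09 to -0.36, adjusted p = 0.0539 to 0.427), and it was 0.04 on total counts. In endoderm the CPM were separate, 416, 381 and 399 in cytoplasm and 223, 253 and 244 in nucleus, yet the TMM-scaled change was 0.01 (adjusted p = 0.935); on total counts it was 0.73 (adjusted p = 2.91e-05). In mesoderm 429, 383 and 392 CPM stood below 458, 592 and 489 CPM, and the change of -0.25 (SE 0.19, adjusted p = 0.282) did not pass. On TPM values the mesoderm changes of FDFT1 (-1.39), INSIG1 (-1.39) and HMGCS1 (-1.68) were larger and passed (limma, adjusted p = 0.000323, 0.000102 and 0.000145).

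INSIG1 was called in hPSC and endoderm. In hPSC it was at 19.2, 15.0 and 15.0 CPM in cytoplasm and 21.4, 20.4 and 24.2 CPM in nucleus, a log2 change of -0.50 (SE 0.15, adjusted p = 0.00868). Ectoderm values overlapped at 125, 92.7 and 107 CPM in cytoplasm and 96.0, 83.1 and 94.7 CPM in nucleus (-0.10, adjusted p = 0.369). Mesoderm had 57.2, 53.8 and 47.2 CPM against 62.7, 72.2 and 72.3 CPM (-0.28, adjusted p = 0.132). These last 2 differences did not pass. In endoderm 52.3, 43.5 and 36.0 CPM in cytoplasm overlapped 29.1, 41.6 and 50.2 CPM in nucleus. There the fitted -0.56 (SE 0.16, adjusted p = 0.00477) was 0.12 on total counts (adjusted p = 0.574), so the direction of INSIG1 in endoderm rests on the scaling.

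**Figure D2:**
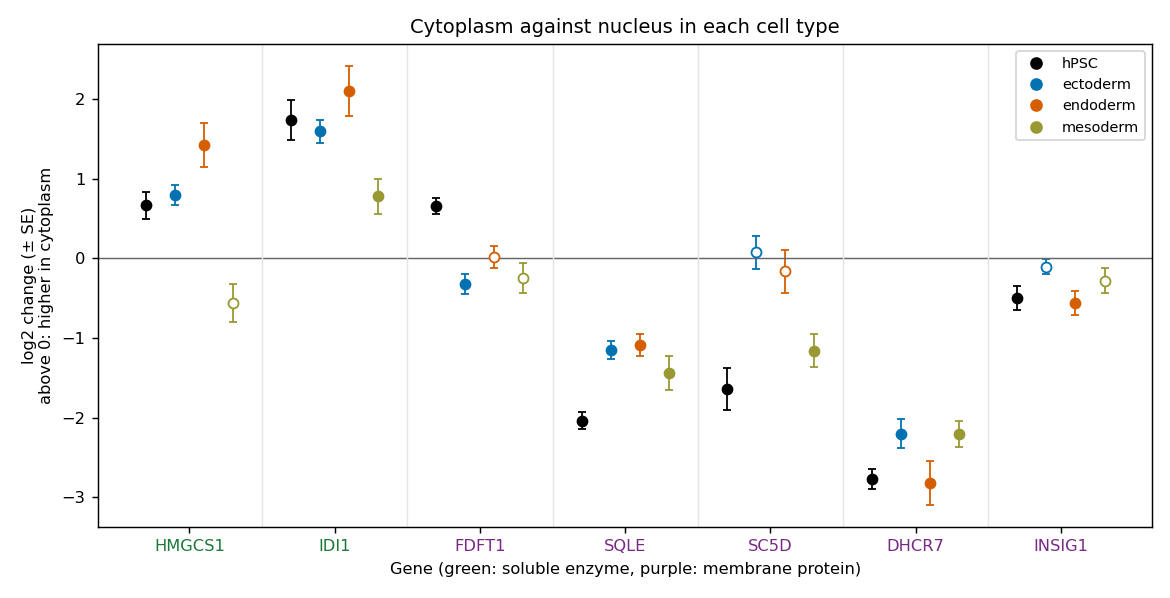
Log2 change of cytoplasm against nucleus for each of the 7 genes in each cell type, with bars of 1 standard error; filled points passed an adjusted p of 0.05 and open points did not. IDI1 is above 0 in all 4 cell types and DHCR7 lies between -2.82 and -2.20.

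The 5 membrane-anchored and 2 soluble genes were set against each other within each library, as the mean log2(CPM + 1) of the first less that of the second, a value that no scaling between libraries changes by much. Its zero depends on the lengths of the transcripts, so that only differences between libraries are read. In cytoplasm its medians for hPSC, ectoderm, endoderm and mesoderm were -0.53, -0.50, -0.72 and -0.78, and the highest single library was at -0.49. In nucleus the medians were 1.85, 1.31, 1.73 and 0.46, with single libraries from 0.16 in mesoderm to 3.04 in the first endoderm nucleus library. In every cell type all nucleus libraries lay above all cytoplasm libraries. Nucleoplasm medians of 0.74, 0.16 and 0.85 lay between those of cytoplasm and nucleus in hPSC, ectoderm and endoderm; the single mesoderm library, at 0.53, was above all 3 mesoderm nucleus libraries. Chromatin was at 0.76, -0.05, 0.27 and -0.11. The ratio of DHCR7 to IDI1 counts shows the same contrast in 1 pair of genes: its median was 0.70 in hPSC cytoplasm and 16.6 in hPSC nucleus, 0.94 and 10.4 in ectoderm, 1.19 and 25.2 in endoderm, and 0.82 and 6.88 in mesoderm. The mesoderm nucleus was the lowest nucleus group on both measures, and it was also the one with high HMGCS1. Without FDFT1, a choice made after seeing the data, the medians were -1.18, -1.01, -1.18 and -1.30 in cytoplasm and 1.70, 0.99, 1.52 and 0.17 in nucleus.

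**Figure D3:**
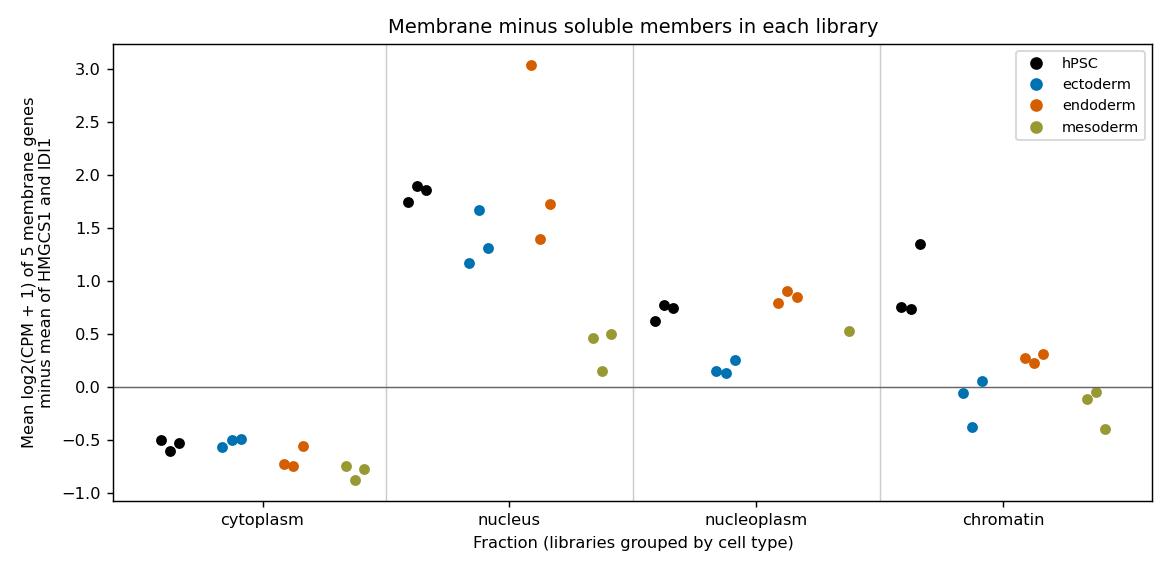
Mean log2(CPM + 1) of the 5 membrane-anchored genes less that of the 2 soluble genes, one point a library, by fraction along the x axis and coloured by cell type. Cytoplasm libraries lie below nucleus libraries in all 4 cell types, and the gap is smallest in mesoderm (medians -0.78 and 0.46).

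Other genes of the pathway were read from fixed lists that leave the 7 genes out. Of 10 further membrane-anchored pathway enzymes, 1 was called higher in cytoplasm and 7 lower in hPSC (median log2 change -1.10, beside 0.10 over all genes), 1 and 7 in ectoderm (-0.80, beside 0.01), 1 and 6 in endoderm (-1.09, beside 0.01), and 0 and 7 in mesoderm (-0.82, beside -0.003). NSDHL in hPSC (0.40), HSD17B7 in ectoderm (0.40) and MSMO1 in endoderm (0.79) were the single membrane enzymes called the other way. Of 6 further soluble enzymes, 5 were called higher and 0 lower in hPSC (median 1.01), 1 and 2 in ectoderm (-0.30), 2 and 2 in endoderm (0.22), and 3 and 0 in mesoderm (0.39). GGPS1, which makes geranylgeranyl diphosphate, was higher in cytoplasm in all 4 (1.48, 1.43, 2.87 and 2.15).

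Genes of uptake and transport were called lower in cytoplasm for 10 of 13 tested in hPSC, and 9 of 13, 11 of 12 and 8 of 13 in ectoderm, endoderm and mesoderm, with 1 called higher in each; over all genes 4297 of 14150, 4236 of 15979, 4542 of 12800 and 4574 of 14533 were lower. STARD4, a soluble sterol carrier, was the one called higher in hPSC (0.95), ectoderm (1.48) and endoderm (1.91). Among 16 reference mRNAs of ER proteins, 15 were called lower in hPSC cytoplasm and 14 in that of each lineage, with medians of -3.09, -1.73, -3.09 and -2.27. HSPA5, the ER chaperone BiP, had a mean of 85.5 CPM in hPSC cytoplasm and 1239 CPM in nucleus. DHCR7 and SQLE were called in the same direction as the ER mRNAs in all 4 cell types; FDFT1 in hPSC was called in the other, and SC5D in ectoderm and endoderm was not called. Of 16 cytosolic reference mRNAs, 15 were higher and 0 lower in hPSC, 0 and 12 in ectoderm, 6 and 1 in endoderm and 8 and 1 in mesoderm. The part of this ER shift in the results for single genes was not tested.

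Whether the cytoplasm-nucleus difference itself depended on cell type was tested as an interaction against hPSC; the 3 tests share the hPSC libraries. A positive value means that the lineage is shifted toward cytoplasm. In ectoderm 4 of 7 genes passed (52.4% of all genes), in endoderm 3 of 7 (38.6%) and in mesoderm 3 of 7 (25.3%). SQLE was shifted toward cytoplasm in all 3 on counts, by 1.02 (SE 0.18, adjusted p = 8.47e-05) in ectoderm, 0.99 (SE 0.18, adjusted p = 0.000242) in endoderm and 0.68 (SE 0.18, adjusted p = 0.00785) in mesoderm, where the TPM values gave -0.30 (limma, adjusted p = 0.454). FDFT1 was shifted toward nucleus in all 3, by -0.84 (SE 0.20, adjusted p = 0.00119), -0.61 (SE 0.20, adjusted p = 0.0182) and -0.82 (SE 0.20, adjusted p = 0.00435). SC5D passed in ectoderm (1.85, SE 0.35, adjusted p = 0.000218) and endoderm (1.51, SE 0.35, adjusted p = 0.0021). INSIG1 passed in ectoderm (0.54, SE 0.20, adjusted p = 0.0251) and HMGCS1 in mesoderm, toward nucleus (-1.15, SE 0.32, adjusted p = 0.0125). IDI1 and DHCR7 did not pass in any lineage. The endoderm FDFT1 value was 0.01 on total counts and 0.07 on TPM values, and its call was lost without the first endoderm nucleus library (-0.41, adjusted p = 0.06). Other lists moved in the same tests. In ectoderm 14 of 16 ER reference mRNAs were shifted toward cytoplasm (median 1.38), 15 of 16 cytosolic ones toward nucleus (median -1.09), and 4 of 4 nuclear RNA controls toward cytoplasm. In endoderm 2 ER mRNAs were shifted each way (median -0.15). In mesoderm 12 of 16 were shifted toward cytoplasm (median 0.89), and the median gene lay at 0.18. Their part in the values of single genes was not tested.

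Chromatin and nucleoplasm were compared in 3 cell types; mesoderm, with 1 nucleoplasm library, was not tested. On counts every one of the 7 genes that was called was lower on chromatin: 3 of 7 in hPSC (30.5% of all genes called, 13.3% lower), 6 of 7 in ectoderm (44.1%, 25.6% lower) and 6 of 7 in endoderm (53.5%, 30.6% lower). SC5D showed the widest gap. In endoderm it was at 302, 252 and 309.7 CPM in nucleoplasm and 88.3, 82.7 and 68.8 CPM on chromatin (log2 change -2.43, SE 0.28, adjusted p = 3.66e-06). The ectoderm values of 123, 122 and 121 CPM stood above 70.1, 63.3 and 64.0 CPM (-1.18, SE 0.21, adjusted p = 0.000578). Both lineages had separate groups. In hPSC the SC5D values were 111, 98.7 and 116 CPM in nucleoplasm and 89.0, 79.8 and 33.7 CPM on chromatin (-0.91, SE 0.25, adjusted p = 0.0164). Chromatin replicate 3 was the low one; without it the change was -0.59 and still passed, while without the first nucleoplasm library the call was lost (adjusted p = 0.0521).

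SQLE was lower on chromatin in all 3 cell types tested on counts, by -0.48 in hPSC (adjusted p = 0.00434), -0.71 in ectoderm (adjusted p = 0.000285) and -1.46 in endoderm (adjusted p = 9.62e-07), where 162, 155 and 168 CPM fell to 93.3, 90.3 and 80.8 CPM. DHCR7 was lower in ectoderm (-0.90, adjusted p = 0.00132) and endoderm (-0.999, adjusted p = 0.00478), and -0.31 in hPSC did not pass. For FDFT1 the changes were -0.44 in ectoderm and -0.93 in endoderm, for INSIG1 -0.32 and -0.84, and neither passed in hPSC. The ectoderm calls of both were lost when single libraries were left out. HMGCS1 was lower on chromatin in hPSC (-0.80, adjusted p = 0.00363) and endoderm (-0.95, adjusted p = 0.00857), whereas in ectoderm the nucleoplasm values of 262, 293 and 254 CPM and the chromatin values of 305, 317 and 285 CPM overlapped. IDI1 passed in ectoderm alone among the 3 (-0.70, adjusted p = 0.00174), with -0.43 in hPSC and -0.53 in endoderm. Of the ER reference mRNAs 13, 16 and 16 of 16 were lower on chromatin in hPSC, ectoderm and endoderm (medians -0.66, -1.09 and -2.27). The cytosolic ones were lower for 7, 15 and 14 of 16. On the TPM values SQLE was 0.013 in hPSC and 0.05 in ectoderm. There ectoderm IDI1, FDFT1 and INSIG1 were 0.12, 0.33 and 0.43, hPSC FDFT1 and INSIG1 passed as higher (0.37 and 0.43), and ectoderm HMGCS1 did too (0.63). The count-based calls lean on the scaling as well: on total counts the median gene lay at 0.23, 0.19 and 0.46 in these 3 cell types where TMM gave -0.003, -0.09 and -0.12, and only 2 of the 7 genes in ectoderm and 3 in endoderm passed. Genes called higher on chromatin went from 2425 of 4312 to 4189 of 4844 in hPSC, from 2950 of 7042 to 4465 of 6291 in ectoderm and from 2934 of 6852 to 5242 of 7099 in endoderm.

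Each lineage was then compared with hPSC in cytoplasm. All 7 genes were higher in all 3 lineages, with no overlap between libraries for any gene (74.3%, 61% and 69% of all genes did not overlap in ectoderm, endoderm and mesoderm). The genes higher than in hPSC made up 39.1% of all genes in ectoderm, 27.5% in endoderm and 35% in mesoderm (76.1%, 59.7% and 68.1% called in either direction). All 21 calls held with DESeq2, with upper-quartile factors, on total counts, with no filter, on TPM values and without any 1 library. The 3 comparisons share the hPSC libraries, so that they are not independent, and the assembled transcripts differ between the cell types, so that only gene sums were compared. In bulk RNA fewer cells of a type and less RNA per cell cannot be told apart.

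INSIG1 rose the most in ectoderm, from 19.2, 15.0 and 15.0 CPM in hPSC cytoplasm to 125, 92.7 and 107 CPM (log2 change 2.67, SE 0.14, adjusted p = 3.29e-10). It rose by 1.21 in endoderm and by 1.65 in mesoderm. HMGCS1 rose by 1.54 and 1.64 in ectoderm and endoderm, and by 1.89 in mesoderm (SE 0.14, adjusted p = 2.94e-08), where 347, 322 and 284 CPM stood above the 69.3 to 90.8 CPM of hPSC. IDI1 rose by 1.07, 0.95 and 1.15 in the same order. The soluble pair therefore rose in every lineage. For DHCR7 the changes were 1.28, 1.65 and 1.20, and for SQLE 1.00, 1.36 and 1.37. SC5D went up by 1.21, 1.17 and 1.51. FDFT1, which started from the highest TPM, had the smallest changes of the 7, at 0.63, 0.53 and 0.71 (endoderm adjusted p = 0.000167). The median change of the 5 membrane genes was 1.21, 1.22 and 1.37, beside medians of 0.04, -0.05 and 0.01 over all genes.

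**Figure D4:**
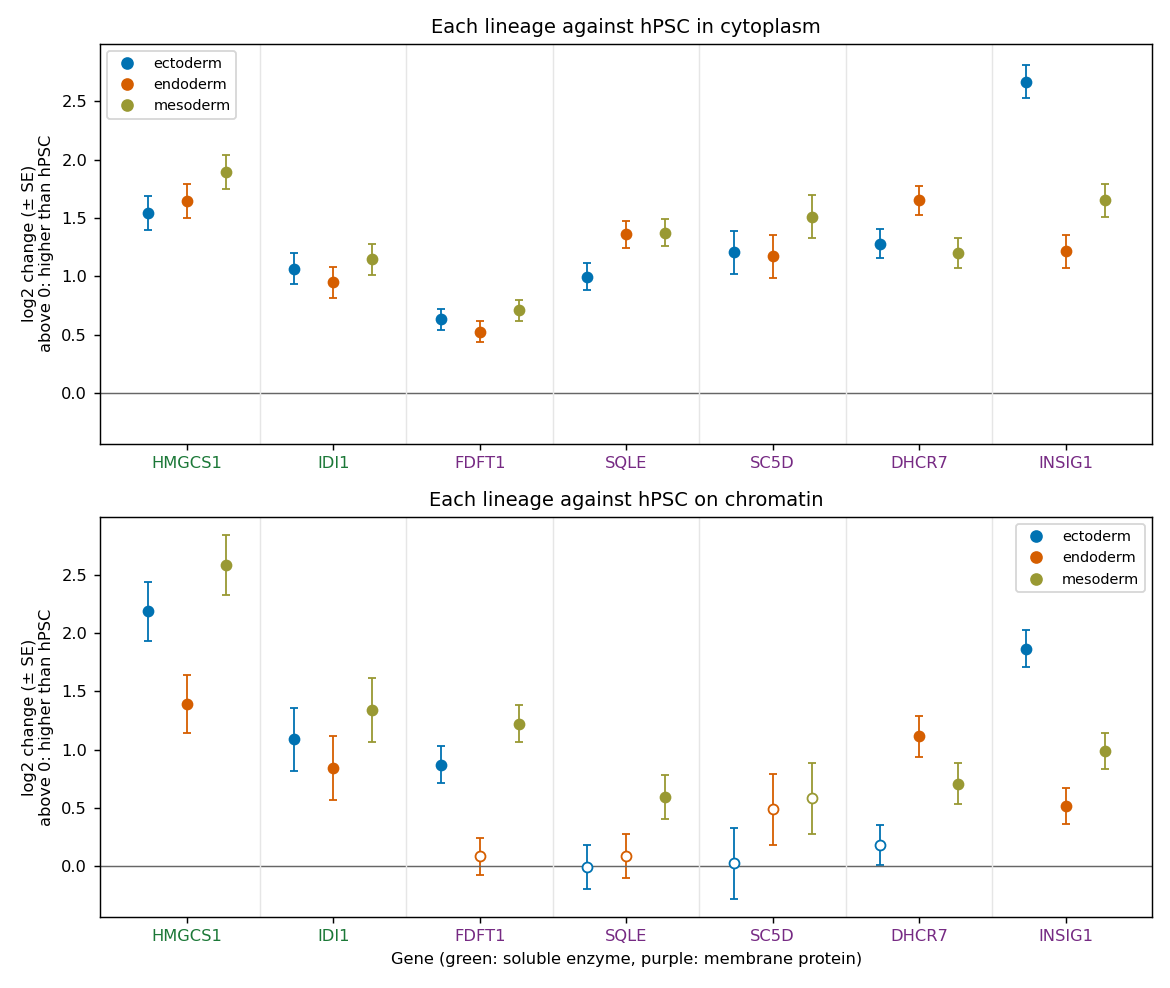
Log2 change against hPSC for each gene and lineage, in cytoplasm and on chromatin, with bars of 1 standard error; filled points passed an adjusted p of 0.05 and open points did not. All 21 cytoplasm points are filled and above 0, from 0.53 to 2.67.

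The further pathway enzymes did not all follow. In cytoplasm 5 of 10 membrane enzymes were higher and 3 lower in ectoderm, 9 and 0 in endoderm, and 7 and 0 in mesoderm. MSMO1, the sterol C4 methyl oxidase, rose from a mean of 23.9 CPM in hPSC to 121, 164 and 143 CPM (log2 changes 2.26, 2.54 and 2.52). Of 6 soluble enzymes, 1 was higher and 3 lower in ectoderm, 3 and 2 in endoderm, and 4 and 2 in mesoderm; PMVK, phosphomevalonate kinase, was lower in all 3 (-1.52, -1.14 and -1.02). Among the regulators SREBF2, the SREBP gene mostly linked to cholesterol, rose by 1.14, 1.25 and 0.95, while SREBF1, more linked to fatty acid synthesis, was lower (-0.72, -0.41 and -0.78). For uptake, VLDLR (-2.03) and SCARB1 (-1.70) fell in ectoderm and LRP8 in endoderm (-0.76) and mesoderm (-1.48). ER reference mRNAs were higher in lineage cytoplasm for 14, 13 and 9 of 16 (medians 0.95, 0.66 and 0.37), and cytosolic reference mRNAs were lower for 15, 13 and 14 of 16 (-0.99, -0.52 and -1.17). HMGCS1 and IDI1 rose, while most of the cytosolic reference mRNAs, many of them for glycolytic enzymes, were lower. What the cytosolic reference says of the rise of HMGCS1 and IDI1 was not tested. The part of the ER shift in the rise of the membrane genes was not tested.

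Nascent RNA is usually enriched on chromatin, but whether it was in these libraries was not tested. On chromatin fewer of the genes were called against hPSC than in cytoplasm, and none was called lower. Yet in endoderm all CPM of SQLE (80.8 to 93.3) and FDFT1 (117 to 122) lay below those of hPSC (95.5 to 101 and 130 to 141). Their TMM-scaled changes were 0.08 and 0.09 and did not pass (edgeR, adjusted p = 0.714 and 0.651). Higher were 4 of 7 in ectoderm (32.4% of all genes higher), 4 of 7 in endoderm (31.1%) and 6 of 7 in mesoderm (28.6%). HMGCS1, IDI1 and INSIG1 were higher in all 3. HMGCS1 went from 78.7, 81.8 and 48.4 CPM in hPSC to 305, 317 and 285 CPM in ectoderm (log2 change 2.19, SE 0.25, adjusted p = 5.53e-06). It reached 156, 161 and 145 CPM in endoderm (1.39, SE 0.25, adjusted p = 0.000299) and 302, 290.3 and 542 CPM in mesoderm (2.58, SE 0.26, adjusted p = 2.45e-06). No lineage library overlapped hPSC. INSIG1 rose by 1.87 in ectoderm (SE 0.16, adjusted p = 3e-07), from 26.1, 28.6 and 27.0 CPM to 93.5, 86.5 and 105 CPM, by 0.99 in mesoderm and by 0.52 in endoderm (adjusted p = 0.0101). IDI1 rose by 1.09, 0.84 and 1.34 in ectoderm, endoderm and mesoderm. The endoderm calls of IDI1 and INSIG1 were lost on total counts (0.59, adjusted p = 0.0776, and 0.26, adjusted p = 0.207), where the median gene lay at -0.25.

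The membrane enzymes differed from one another on chromatin. FDFT1 was higher in ectoderm (0.87, SE 0.16, adjusted p = 0.000297) and mesoderm (1.22), with 0.09 in endoderm not called. DHCR7 was higher in endoderm, where 109, 105 and 112 CPM in hPSC stood below 202, 208 and 182 CPM (1.11, SE 0.18, adjusted p = 0.000118), and in mesoderm (0.71), with 0.18 in ectoderm not called (adjusted p = 0.375). SQLE was at 101, 95.5 and 100.0 CPM on hPSC chromatin and at 100.3, 80.2 and 101 CPM on ectoderm chromatin (-0.01, adjusted p = 0.967). SQLE passed in mesoderm only (0.59, adjusted p = 0.0176); this call was lost without hPSC replicate 2 or mesoderm replicate 3. SC5D did not pass in any lineage (0.02, 0.49 and 0.58), and it passed in endoderm (0.80) and mesoderm (0.84) when the first hPSC library was left out. SQLE and SC5D in ectoderm thus passed in cytoplasm and not on chromatin; the difference between those fractions was not tested. Of the 10 further membrane enzymes 3, 5 and 5 were higher and 2, 1 and 0 lower. Genes called higher shifted from 3319 of 6608 to 2487 of 6569 on total counts in endoderm.

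Across the 16 groups the mean log2(CPM + 1) of the 7 genes was compared with every gene of at least 10 CPM, 9175 in all. The closest profile was that of MSMO1, an enzyme of the same pathway (Pearson r = 0.978 over 16 groups that share libraries' cell types and fractions), followed by FUT8 (0.929), HAPLN1 (0.915), GPC6 (0.892) and SLC1A1 (0.891). Within the set HMGCS1 followed the mean most closely (0.863) and DHCR7 the least (0.538). Each of the 7 genes is itself part of that mean, so that these values are partly fixed by construction. SQLE and DHCR7 were alike (0.863), as were HMGCS1 and IDI1 (0.861), while IDI1 and DHCR7 ran at -0.30. These values describe the groups, which are not independent.

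The deposited transcript counts, which are less certain than gene sums, showed which isoforms carried these values. Each cell type has its own assembly, so shares are not compared between cell types. The 3 lineage assemblies hold SQLE-201 as the only transcript of SQLE, which fixes its share there at 100%. The hPSC assembly also holds SQLE-206, and SQLE-201 took 79.8% in hPSC cytoplasm. FDFT1-201 carried 92.3% to 99.2% of FDFT1 in cytoplasm. SC5D was split between 2 protein coding transcripts, with SC5D-202 at 66.3% in hPSC cytoplasm and 37.7% in hPSC nucleus. For IDI1 the transcript IDI1-205, which GENCODE types as a processed transcript, took 72.8% of the counts in ectoderm cytoplasm and 45.5% in hPSC cytoplasm. The endoderm and mesoderm assemblies hold only the protein coding IDI1-201, so that all IDI1 counts there were on it by construction. HMGCS1 in ectoderm cytoplasm had 33.4% and 8.13% of its counts on 2 assembled transcripts without a GENCODE name.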

How the data were processed

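RNA-seq libraries of subcellular fractions were made with RNAzol RT and the NEBNext Ultra kit and run on a NovaSeq, per the labels' protocols. The authors deposited transcript tables of read counts and of TPM, with one assembly per cell type; RSEM, STAR and hg38 are named in the submitters' processing notes, without versions or roles. Counts here are the deposited counts summed over the transcripts of a gene, and CPM are shares of the library total. The tables' column code "Nei" was read as nucleus, the fraction with no other code. A combined assembly that holds ectoderm served as an alternative, and 1 value column that matched no sample was not used.

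Tests used edgeR 4.0.16 in R 4.3.3 (quasi-likelihood, TMM factors, two-sided, low counts removed by filterByExpr at a minimum of 10, Benjamini-Hochberg over all genes tested, threshold 0.05), with all libraries of a cell type, or of a fraction, sharing 1 estimate of the spread. The 16 comparisons were cytoplasm against nucleus, chromatin against nucleoplasm, lineage against hPSC in cytoplasm and on chromatin, and the interaction of lineage and fraction. Between cell types, genes of all 4 tables were used. Within-library differences used log2(CPM + 1). The alternatives were total counts, upper-quartile factors, DESeq2 1.42.0, no filter, limma 3.58.1 on log2(TPM + 1), the combined assembly, a replicate block and leaving out each library. Gene positions came from GENCODE 29 and promoters from RefSeq. All 7 genes are named in each comparison; of each list up to 2 called genes in each direction with a mean of at least 10 CPM are named, and SREBF2 as well. Some genes that this rule would name are not reported here. The members and lists were chosen with earlier results of these data known. No 2 of 45 replicate pairs held the same values. The fit was tested on simulated data.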

Additional observations from a re-analysis of the deposited data

Results flagged for a closer look

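In 10 cases the cytoplasm-nucleus difference of a gene in a lineage differed from that in hPSC by the interaction test (edgeR, log2 scale, 3 libraries a group). In ectoderm these were SC5D (1.85), SQLE (1.02), INSIG1 (0.54) and FDFT1 (-0.84). In endoderm they were SC5D (1.51), SQLE (0.99) and FDFT1 (-0.61). In mesoderm they were SQLE (0.68), FDFT1 (-0.82) and HMGCS1 (-1.15). All share the hPSC libraries. The 4, 3 and 3 of 7 stand beside 52.4%, 38.6% and 25.3% of all genes called in the same tests. On TPM values mesoderm SQLE was -0.30 and endoderm FDFT1 was 0.073. The INSIG1 value did not pass in 5 of 12 fits that left out 1 library.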

How the results depend on the processing

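Of 1484 values for single genes under the alternatives, 1383 kept their call, 60 of which changed sign where neither fit called the gene, 57 no longer passed, 26 newly passed and 18 changed sign from or to a called value; the cause was not tested. Counts of the 7 genes called that moved by over 1.5 times were these. Chromatin against nucleoplasm gave 5 in hPSC with DESeq2 (3 with edgeR), 2 on total counts and 1 on TPM in ectoderm (6), and 3 on total counts and 2 on TPM in endoderm (6). Endoderm against hPSC on chromatin gave 2 on total counts, with upper-quartile factors and on TPM (4).

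The 18 changes of sign were as follows. For cytoplasm against nucleus, ectoderm FDFT1 was 0.036 on total counts and 0.0098 on TPM, endoderm INSIG1 was 0.12 on total counts, and mesoderm IDI1 was -0.36 on TPM. For chromatin against nucleoplasm on TPM, hPSC had FDFT1 at 0.37, SQLE at 0.013 and INSIG1 at 0.43, and ectoderm had IDI1 at 0.12, FDFT1 at 0.33, SQLE at 0.05, HMGCS1 at 0.63 and INSIG1 at 0.43. For the endoderm interaction, FDFT1 was 0.011 on total counts and 0.073 on TPM, and DHCR7 was 0.67 on total counts, 0.71 on TPM and 0.57 without the first endoderm nucleus library, the highest of -0.29 to 0.57 over the fits without 1 library. For the mesoderm interaction SQLE was -0.30 on TPM.

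Leaving out 1 library gave counts of 4 to 5 for cytoplasm against nucleus in ectoderm, 5 to 6 in endoderm, 7 to 7 in hPSC and 4 to 4 in mesoderm. For chromatin against nucleoplasm they were 2 to 3 in hPSC, 4 to 6 in ectoderm and 6 to 6 in endoderm. Against hPSC they were 7 to 7 in all 3 cytoplasm comparisons, and on chromatin 4 to 4 in ectoderm, 4 to 5 in endoderm and 5 to 7 in mesoderm. The interaction gave 3 to 5 in ectoderm, 3 to 4 in endoderm and 3 to 3 in mesoderm.

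Whether replicate numbers pair the samples could not be told from correlations, since paired samples can also correlate weakly. In no comparison did all same-numbered libraries correlate above 0.1. Single values ran from -0.388 for mesoderm against hPSC on chromatin to 0.417 for ectoderm against hPSC on chromatin. With the replicate block the calls of all 7 genes in all 16 comparisons, 112 values, were unchanged (7 of 7 in hPSC cytoplasm against nucleus). Only for ectoderm chromatin against nucleoplasm did every library correlate best with its own number (0.038, 0.078 and 0.045), a hint from the data and not the design. The values of the membrane-anchored genes without FDFT1 were added after seeing the data. Depth limits IDI1 the most, with 56 counts in the thinnest library.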
